A study of Arabidopsis with 12 samples.

Results

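The 10 genes examined belong to the serine/arginine-rich (SR) splicing factor family of Arabidopsis thaliana and were followed transcript by transcript. They were picked by locus from the SR, RS and RS2Z subfamilies, and each listed transcript was kept apart. These 10 genes of 32833 in the table held 48 of its 54013 transcripts. The SR subfamily was represented by SR30 (AT1G09140), SR34 (AT1G02840), SR34A (AT3G49430) and SR34B (AT4G02430). The RS subfamily was represented by RS31 (AT3G61860), RS31A (AT2G46610), RS40 (AT4G25500) and RS41 (AT5G52040, listed as ATRSP41). The RS2Z subfamily was represented by RS2Z32 (AT3G53500) and RS2Z33 (AT2G37340).

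SR proteins carry an RNA recognition motif and a tail rich in arginine and serine, bind exons and introns of pre-mRNA, and help the spliceosome choose splice sites. SR30, SR34, SR34A and SR34B are the plant relatives of human SRSF1, whereas the RS and RS2Z proteins occur in plants, and the RS2Z proteins also carry zinc knuckles. Transcripts of SR genes are themselves alternatively spliced, and in Arabidopsis light is known to change the splicing of RS31, SR30 and other SR genes. Several of the resulting isoforms encode no full-length protein and stay in the nucleus or are degraded by nonsense-mediated decay, so the mix of isoforms can matter as much as the level of the gene. The exon structure of the listed transcripts was not used here, so transcripts are named by number only.

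RNA was measured by sequencing of poly(A)-selected libraries from whole seedlings raised in continuous white light until they were 7 days old, to ask how the transcription factor bZIP59 bears on the response to shade. The 4 groups were bzip59 in shade, bzip59 in white light, Col-0 in shade and Col-0 in white light, where bzip59 is the insertion line SALK_024459, Col-0 is the wild type, and shade lasted 2 h with a ratio of red to far-red light of 0.65. Each group held 3 libraries, 12 in all, and values are written in the order of libraries 1, 2 and 3. Nothing in the labels tells whether these were separate growths of seedlings, and p-values therefore measure only the spread between these samples.

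Values were given as TPM, an abundance scaled to transcript length and to the library total, which keep no read counts, so the depth is unknown. Changes are log2 differences of TPM + 1 from limma, a scale that understates changes at low levels, and the threshold for a call was an adjusted p of 0.05 (Benjamini-Hochberg over all features tested). The level of bZIP59 (AT2G31370) was 7.33 ± 1.1 TPM in bzip59 shade and 4.15 ± 1.2 TPM in bzip59 white light, against 23.1 ± 3.23 TPM in shaded Col-0 and 20.6 ± 2.71 TPM in unshaded Col-0 (SD, n = 3 each). The 5 green-tissue markers were above 0 in every library and the 5 root markers in all but Col-0 white light 2, where 1 was listed at 0. Sums of the 8 seed storage markers ran from 1.54 to 75 TPM in bzip59 shade, from 28.5 to 180 TPM in bzip59 white light, from 1.72 to 3.12 TPM in shaded Col-0 and from 2.89 to 3.67 TPM in unshaded Col-0. CRA1 and OLEO1 were above 0 throughout, while CRB and CRC were listed at 0 in 5 of 6 Col-0 libraries. The library bzip59 white light 2 stood apart in its scaling (TMM) factor, 0.831 against 0.931 to 1.11 in the others. Col-0 white light 2 had the lowest median share of the leading transcript over all genes of 72.6%, against 73.3% to 76.9% in the others.

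All 10 genes were above 0 TPM in every library, and their levels spanned more than an order of magnitude. RS2Z33 averaged 88.4 TPM over the 12 libraries, followed by RS2Z32 with 81.7 TPM, SR34 with 72.6 TPM, SR30 with 68.6 TPM, RS41 with 63.8 TPM, RS40 with 56 TPM and SR34A with 53.8 TPM. RS31 averaged 31.7 TPM, RS31A 9.1 TPM and SR34B 6.95 TPM. Neighbours in this order overlapped in range, except that SR34A lay above RS31 and RS31 above RS31A in all 12 libraries without overlap. The abundant group thus held both RS2Z genes together with members of the SR and RS subfamilies, and the scarce genes were a paralog from the SR and a paralog from the RS subfamily. TPM is a level per transcript length. Reads shared between paralogs, or between overlapping transcripts of a gene, make each of these values uncertain, and strandedness was not stated.

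**Figure D1:**
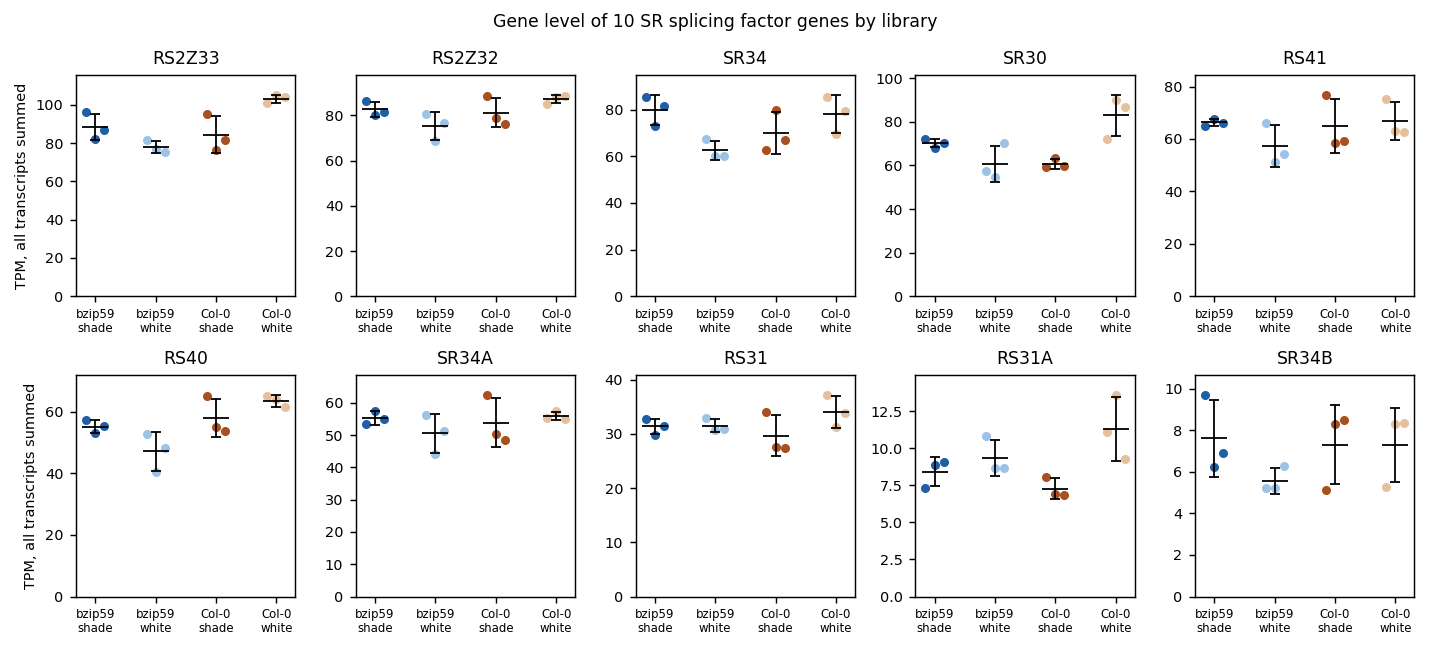
Gene level in TPM on the y axis, with all transcripts of a gene summed, by group on the x axis. Points are libraries 1, 2 and 3 and bars are mean ± SD (n = 3); SR30 and RS31A are lower in all Col-0 shade libraries (at most 63.2 and 8.08 TPM) than in any Col-0 white-light library (at least 72.1 and 9.28 TPM).

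Of the 48 transcripts, 34 were above 0 in every library, 10 were listed at 0 in some libraries, and SR34 transcript 5, SR34B transcript 3, and RS41 transcripts 3 and 4 were listed at 0 in all 12. RS31, best known for its light-dependent isoforms, had 1 listed transcript, so its splicing could not be followed and its share was 100% throughout. The other 9 genes had between 3 and 8 listed transcripts, and 23 of the 48 reached a mean share of 10% of their gene in some group. A share is the percentage of a gene's TPM that a transcript carried in a library, so the shares of a gene sum to 100% and are not independent.

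In the SR subfamily a single transcript led each gene in 12 of 12 libraries. SR34, the closest relative of human SRSF1, was the gene with the most concentrated output: transcript 1 carried 83.2, 85 and 83.8% in bzip59 shade, 87.9, 82.3 and 75.7% in bzip59 white light, 82.8, 76.1 and 83.8% in Col-0 shade and 82.9, 72.3 and 82.2% in Col-0 white light. Groups of the same genotype or the same light overlapped, with Col-0 white light 2 lowest. The remaining SR34 transcripts 2, 3 and 4 ranged from 0.838% to 12.3%. SR30, whose transcript mix is known to respond to light in Arabidopsis, divided its output between a leading transcript 2 and a transcript 1. Transcript 2 of SR30 carried 59.7, 52.4 and 59% in bzip59 shade, 54.1, 62.3 and 54.3% in bzip59 white light, 51, 61.4 and 50.9% in Col-0 shade and 54, 55.6 and 60.8% in Col-0 white light. Transcript 1 of SR30 carried 36.1, 43.3 and 34.5% in bzip59 shade, 39.8, 31 and 39.4% in bzip59 white light, 42.5, 33.9 and 43.6% in Col-0 shade and 39.8, 39.6 and 34% in Col-0 white light. Every group covered a similar range in both, and SR30 transcript 3 stayed between 4.16% and 6.66%.

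SR34A, for which 7 transcripts were listed, was led by transcript 1, which carried 66.6, 72.7 and 72.9% in bzip59 shade, 81.1, 70.1 and 70.8% in bzip59 white light, 72.4, 70.7 and 69.5% in Col-0 shade and 78.2, 54.1 and 69.7% in Col-0 white light. Transcript 6 of SR34A carried 16.2, 12.5 and 14.2% in bzip59 shade, 5.84, 18.4 and 10.4% in bzip59 white light, 8.9, 14.2 and 16.3% in Col-0 shade and 10.4, 23.7 and 15% in Col-0 white light. For transcript 7 of SR34A the shares were 11.8, 9.59 and 9.67% in bzip59 shade, 8.77, 7.93 and 12.9% in bzip59 white light, 12.7, 9.62 and 10.8% in Col-0 shade and 6.3, 16.9 and 10.4% in Col-0 white light. Col-0 white light 2 had the lowest share of transcript 1 and the highest of transcripts 6 and 7, and the groups overlapped. The other SR34A transcripts, 2 to 5, stayed at or below 3.84%. SR34B, a scarce gene, varied widely within groups: its transcript 1 carried 72.3, 66 and 85.2% in bzip59 shade, 77.9, 55 and 74.4% in bzip59 white light, 56.4, 79.1 and 75.9% in Col-0 shade and 69.5, 83.3 and 61.1% in Col-0 white light. Its transcript 2 carried 7.63, 19.4 and 6.53% in bzip59 shade, 11.9, 11.3 and 13% in bzip59 white light, 21.9, 12.8 and 4.59% in Col-0 shade and 16, 5.54 and 9.34% in Col-0 white light. Its transcript 4 carried 20.1, 14.6 and 8.27% in bzip59 shade, 10.2, 33.7 and 12.5% in bzip59 white light, 21.7, 8.18 and 19.5% in Col-0 shade and 14.5, 11.2 and 29.6% in Col-0 white light. Libraries of SR34B overlapped between the lights and between the genotypes in all 3.

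In the RS subfamily, RS31A, RS40 and RS41 had the most even mixes. RS31A was the most even of the 10 genes, with 4 transcripts that each reached 10% and with transcript 1 in the lead in 9 of 12 libraries. Its transcript 1 carried 29.5, 39.3 and 55.7% in bzip59 shade, 37.3, 40.2 and 44.5% in bzip59 white light, 48.3, 43.3 and 41.1% in Col-0 shade and 23.3, 43 and 30.9% in Col-0 white light. Its transcript 2 carried 38.2, 36 and 16.8% in bzip59 shade, 16.9, 15.3 and 13% in bzip59 white light, 28.2, 31.3 and 30.6% in Col-0 shade and 21.1, 24.3 and 29.1% in Col-0 white light. Its transcript 3 carried 21.1, 16.8 and 12.4% in bzip59 shade, 10.9, 11.4 and 22.3% in bzip59 white light, 23.5, 18.8 and 28.3% in Col-0 shade and 21.5, 25.1 and 6.79% in Col-0 white light. Transcripts 1 and 3 overlapped between all groups, while transcript 2 was lower in every bzip59 white-light library than in any Col-0 white-light library. RS31A transcript 4, which differed most between the lights, carried 11.2, 7.8 and 15.1% in bzip59 shade, 34.9, 33.1 and 20.2% in bzip59 white light, 0, 6.64 and 0% in Col-0 shade and 34.1, 7.6 and 33.2% in Col-0 white light. Both shade groups of transcript 4 lay below the white-light group of the same genotype without overlap.

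RS40 and its paralog RS41, which are known to act with a KH-domain RNA-binding protein in stress-responsive splicing, were long lists of transcripts with few large ones. RS40 transcript 1 carried 49.6, 52.7 and 49.3% in bzip59 shade, 50.5, 61.4 and 53.3% in bzip59 white light, 53, 46.4 and 51.8% in Col-0 shade and 53, 30.9 and 44% in Col-0 white light. RS40 transcript 3 carried 20.7, 27.8 and 21.1% in bzip59 shade, 19.7, 21.7 and 15.6% in bzip59 white light, 19.8, 21.9 and 26.8% in Col-0 shade and 15.3, 22.2 and 25.6% in Col-0 white light. The lowest share of RS40 transcript 1 was in Col-0 white light 2 and the highest in bzip59 white light 2, and the groups overlapped. RS40 transcripts 4, 5, 6 and 8 ranged from 0.992% to 13.1%, and transcripts 2 and 7 did not exceed 5%. In RS41, transcripts 1 and 2 changed places as the leading transcript, each leading in 6 of 12 libraries. RS41 transcript 1 carried 56.8, 34.5 and 40.4% in bzip59 shade, 41.7, 47.1 and 49.6% in bzip59 white light, 40.7, 45.3 and 49.2% in Col-0 shade and 52.3, 29.2 and 37.9% in Col-0 white light. RS41 transcript 2 carried 31.2, 55.3 and 48.3% in bzip59 shade, 50.7, 33.1 and 38.5% in bzip59 white light, 49.4, 40.2 and 36.7% in Col-0 shade and 37.1, 50.1 and 48.1% in Col-0 white light. The lead changed hands within each of the 4 groups. RS41 transcript 5 carried 9.96, 4.28 and 8.56% in bzip59 shade, 6.31, 0 and 9.23% in bzip59 white light, 7.54, 11.7 and 11.8% in Col-0 shade and 7.49, 11.4 and 11.7% in Col-0 white light, and transcripts 6 and 7 reached at most 11.8%.

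In the RS2Z subfamily a single transcript led each gene. RS2Z33, known to influence the splicing of its own pre-mRNA and of SR30 when overproduced in Arabidopsis, was led by transcript 1, with 79.7, 85.6 and 79.8% in bzip59 shade, 81.6, 80.3 and 80.1% in bzip59 white light, 81.8, 75.5 and 82.5% in Col-0 shade and 81.9, 71.3 and 79% in Col-0 white light. Its transcripts 2 to 6 ranged from 0% to 12.5%. Of these, transcript 5, with at most 0.462% in bzip59 shade and at least 0.7% in bzip59 white light, was the 1 that did not overlap between the lights in bzip59. It averaged 0.661 TPM over the 12 libraries, below the filter of 1 TPM, and less than 5% of its gene. Transcript 5 was therefore not tested, and no share over all features is given for it. RS2Z32, its close paralog, was led by transcript 2, which carried 66.9, 64.2 and 65.2% in bzip59 shade, 64.3, 64.9 and 57.5% in bzip59 white light, 66.6, 60.4 and 64.7% in Col-0 shade and 69.1, 51.9 and 62.9% in Col-0 white light. RS2Z32 transcript 1 carried 17.8, 19.8 and 15.8% in bzip59 shade, 22.9, 18.6 and 23.8% in bzip59 white light, 18.7, 22.7 and 17.8% in Col-0 shade and 16.1, 26.8 and 19.7% in Col-0 white light, and its transcript 3 carried 15.3, 16 and 18.9% in bzip59 shade, 12.8, 16.5 and 18.6% in bzip59 white light, 14.8, 16.9 and 17.4% in Col-0 shade and 14.7, 21.3 and 17.4% in Col-0 white light. Groups overlapped for RS2Z33 transcript 1 and for all 3 transcripts of RS2Z32 given here, and Col-0 white light 2 was again the lowest in the leading transcripts of both genes. That library had the lowest leading share in 6 of the 9 genes with several transcripts.

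**Figure D2:**
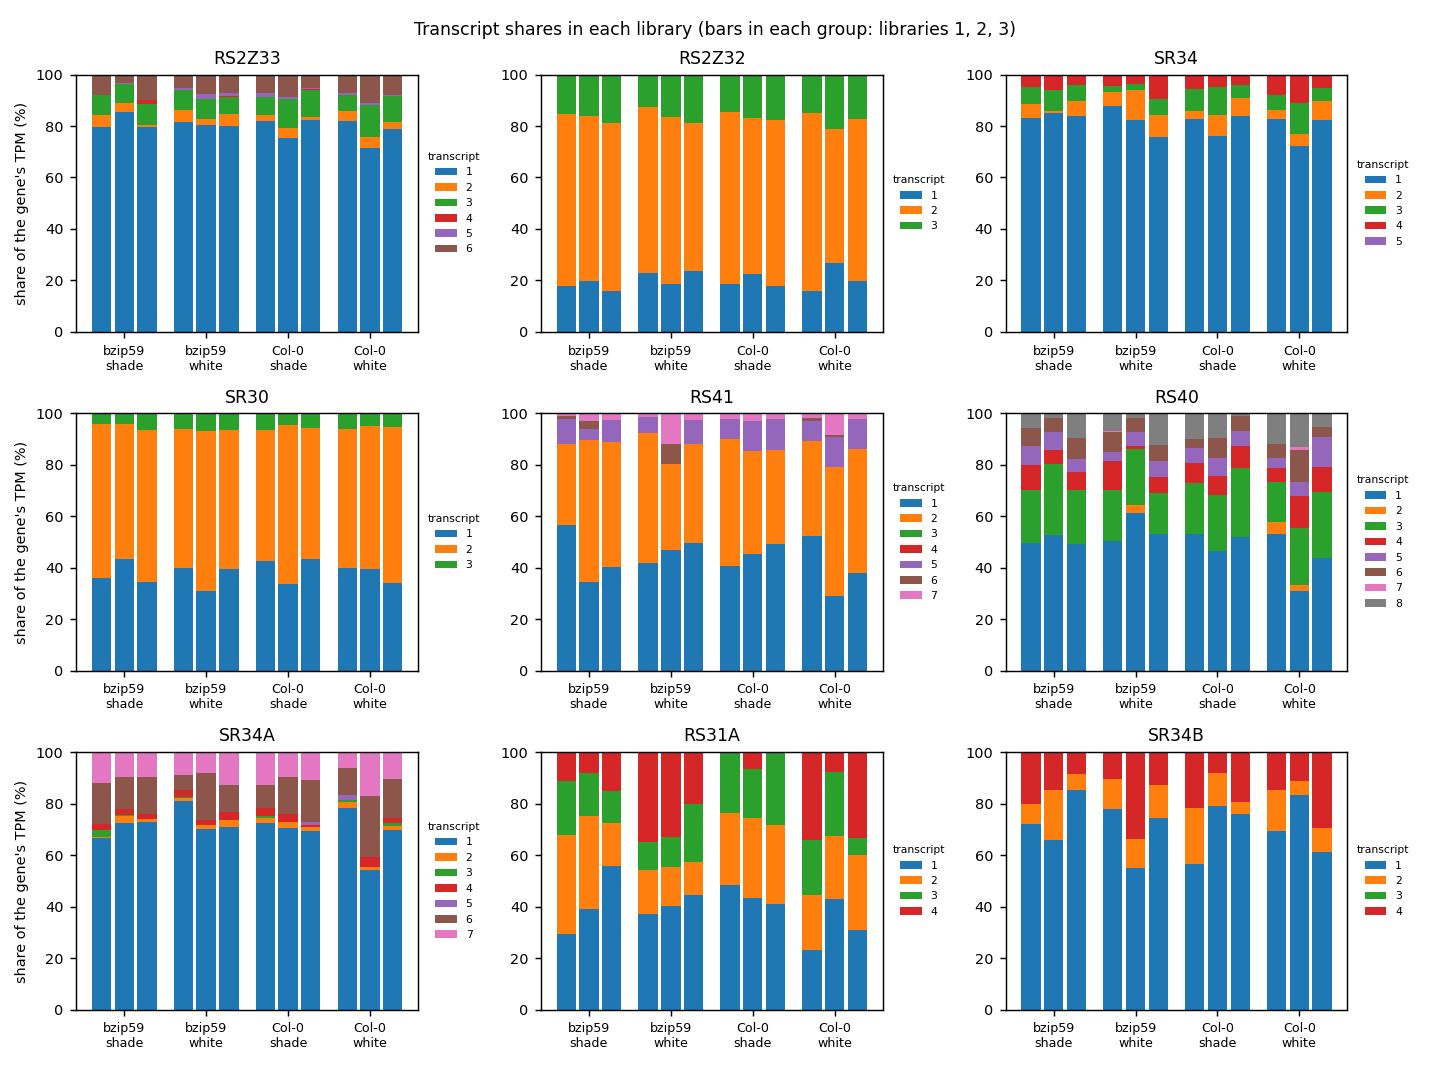
Share of each gene's TPM (y axis, %) carried by each listed transcript, with a stacked bar per library and 3 bars per group on the x axis. Colours number the transcripts. RS31A transcript 4 is at most 15.1% in the shade libraries of either genotype, but it is also low, at 7.6%, in Col-0 white light 2. RS41 transcripts 1 and 2 each lead in 6 of 12 libraries.

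For shade in Col-0 seedlings, what passed the test in this family was a lower gene level of SR30 and of RS31A. Of 10 genes, 2 fell and 0 rose, where 6.5% of all 19693 tested genes fell, 3.42% rose and 9.92% were called in either direction. An unadjusted limma p under 0.05 was found for 3 of the 10, where 22.6% of all tested genes had one. All 10 point estimates were at or below 0, with a median of -0.15 against -0.01 for all tested genes, but 1 of them was above 0 after quantile normalization and 2 with TMM factors. Libraries of 3 genes did not overlap between the lights, all lower in shade, where 15.8% of all tested genes did so in that direction. In whole seedlings, fewer cells that express a gene and less RNA per cell cannot be told apart.

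SR30 reached 59.1, 63.2 and 59.7 TPM in Col-0 under shade, against 72.1, 90 and 86.7 TPM in Col-0 white light. The highest Col-0 shade library lay below the lowest Col-0 white-light library, and the mean in shade was 73.1% of that in white light. The change was -0.44 (SE 0.12, limma adjusted p = 0.0394). SR30 transcript 1 had 25.1, 21.4 and 26.1 TPM in Col-0 under shade, against 28.7, 35.7 and 29.4 TPM in Col-0 white light. SR30 transcript 2 had 30.1, 38.8 and 30.4 TPM in Col-0 under shade, against 39, 50 and 52.7 TPM in Col-0 white light. SR30 transcript 3 had 3.86, 3.03 and 3.25 TPM in Col-0 under shade, against 4.46, 4.3 and 4.51 TPM in Col-0 white light. Each of the 3 transcripts was lower in every Col-0 shade library, among 7 of 35 tested transcripts of the family that were, where 14.4% of all tested transcripts lay apart in that direction. However, none of the 3 passed the test alone (changes of -0.36, -0.50 and -0.31, limma adjusted p of 0.282, 0.0809 and 0.367). The SR30 call was lost with TMM factors (-0.38, adjusted p = 0.0975) and on leaving out any of 7 libraries, with adjusted p from 0.062 to 0.135: bzip59 shade 1 or 3, Col-0 shade 1, 2 or 3, and Col-0 white light 2 or 3. It was also lost without the intensity trend (0.0545), with the 2 groups fitted alone (0.0706) and without both white-light libraries numbered 2 (0.0771).

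RS31A, the scarce paralog of RS31, reached 8.08, 6.93 and 6.83 TPM in Col-0 under shade, against 11.1, 13.6 and 9.28 TPM in Col-0 white light. These groups did not overlap, and the mean in shade was 64.3% of that in white light. Its change was -0.56 (SE 0.15, limma adjusted p = 0.0386). Transcript 4 had the largest change among its transcripts, with 0, 0.46 and 0 TPM in Col-0 under shade, against 3.79, 1.03 and 3.08 TPM in Col-0 white light. It was listed at 0 in 2 of the 3 Col-0 shade libraries, and an exact 0 in an estimate of TPM need not mean that the transcript was absent. The change of transcript 4 was -1.59 (SE 0.35, limma adjusted p = 0.0208), and it was the 1 of 35 tested transcripts that was called, where 6.43% of all 26282 tested transcripts were called and 4.15% were called lower. RS31A transcript 2 had 2.28, 2.17 and 2.09 TPM in Col-0 under shade, against 2.35, 3.29 and 2.7 TPM in Col-0 white light. Transcript 2 was lower in each Col-0 shade library, but its change of -0.24 was not called (limma adjusted p = 0.609), and transcripts 1 and 3 overlapped between the lights. Without transcript 4 the rest of RS31A summed to 8.08, 6.47 and 6.83 TPM in Col-0 under shade, against 7.33, 12.5 and 6.2 TPM in Col-0 white light, which overlapped. The mean of that rest was 7.13 TPM in Col-0 under shade and 8.68 TPM in Col-0 white light. Transcript 4 was picked by its change in these same libraries, so the overlap of the rest is not a separate test. Leaving out Col-0 white light 2, the highest library, moved the change of RS31A to -0.43 (adjusted p = 0.149). Further libraries whose omission ended the RS31A call were bzip59 shade 2 or 3, bzip59 white light 3, Col-0 shade 2 or 3 and Col-0 white light 1, with adjusted p from 0.0555 to 0.146. The RS31A call was also lost with the replicate number as a block (0.0546) and with the 2 groups fitted alone (0.111). It was lost as well without the filter on low values (0.0581) and without both white-light libraries numbered 2 (0.117). The call of transcript 4 was lost without library 1 or 3 of either light in Col-0, with adjusted p from 0.0556 to 0.0892, and with the 2 groups fitted alone (0.0884).

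**Figure D3:**
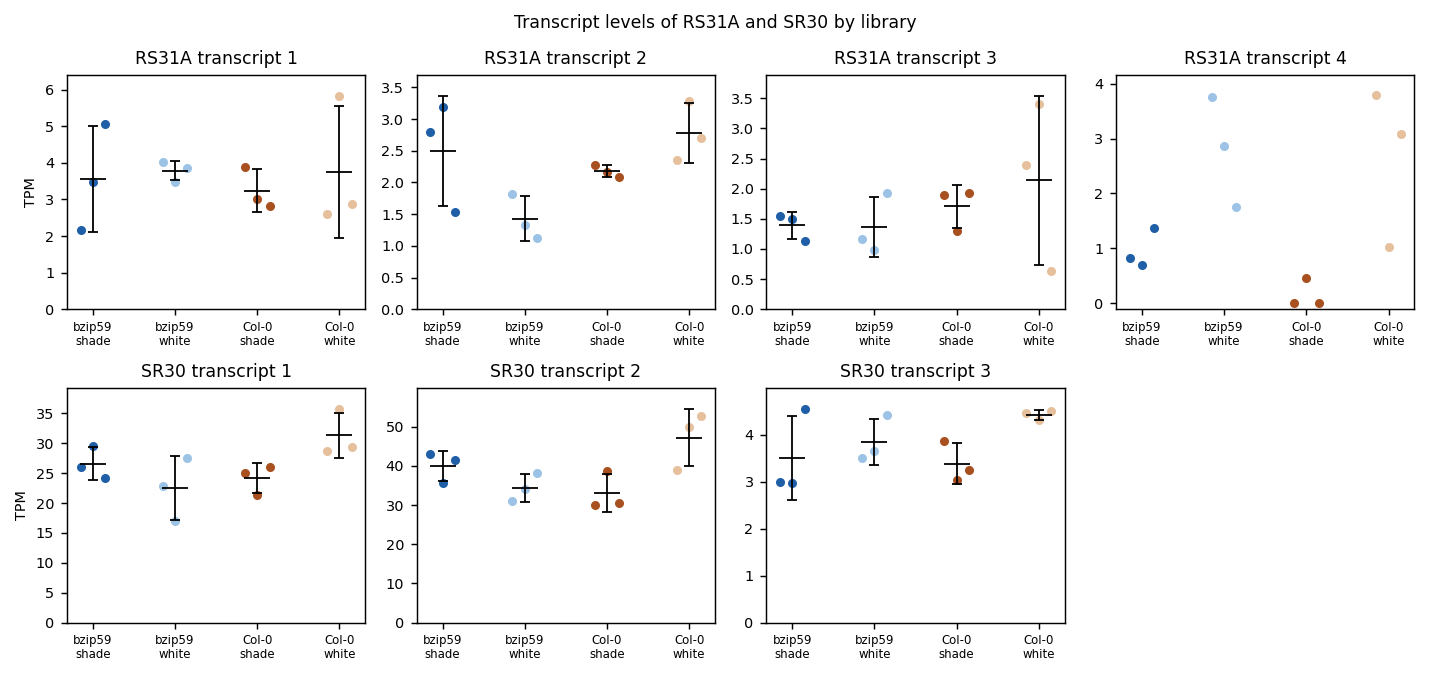
TPM (y axis) of each transcript of RS31A and SR30 by group (x axis), with points for libraries 1, 2 and 3 and mean ± SD (n = 3) as bars, left out for RS31A transcript 4 because 2 of its values are listed at 0. RS31A transcript 4 is at most 0.46 TPM in Col-0 shade and at least 1.03 TPM in Col-0 white light.

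The other 8 genes did not pass the test in Col-0. RS2Z33 came closest, with 95.4, 76.5 and 81.4 TPM in Col-0 under shade, against 101, 105 and 104 TPM in Col-0 white light. Its Col-0 groups did not overlap, and its change was -0.29 (SE 0.11, limma adjusted p = 0.123). Without Col-0 shade 1, the highest of its shade libraries, the change was -0.38 and was called (adjusted p = 0.0477). RS31 reached 34, 27.6 and 27.4 TPM in Col-0 under shade, against 37.2, 31.2 and 33.8 TPM in Col-0 white light, overlapping, with a change of -0.20 (95% interval from -0.44 to 0.05). SR34 reached 62.7, 80 and 66.9 TPM in Col-0 under shade, against 85.2, 69.4 and 79.6 TPM in Col-0 white light, overlapping as well, with a change of -0.16 (95% interval from -0.43 to 0.11). The 5 remaining genes had changes from -0.13 to -0.00.

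In the bzip59 mutant the same 2 h of shade gave no called change in any of the 10 genes, where 10.2% of all tested genes were called with limma, and SR34 was the 1 gene with an unadjusted p under 0.05 (26.6% of all tested genes). The median change was 0.20 against 0.11 for all tested genes, and 0.07 against 0.01 with TMM factors. Libraries of SR34, RS2Z33 and RS40 were higher in every shade library without overlap, which held for 21.5% of all tested genes in that direction. SR34 had 85.4, 72.8 and 81.6 TPM in bzip59 shade, against 67.3, 60.2 and 59.9 TPM in bzip59 white light. Its change was 0.35 (SE 0.12, limma adjusted p = 0.1), and the mean in shade was 128% of that in white light. No other gene of the family came as close to a call there. RS2Z33 had 96, 82.3 and 86.6 TPM in bzip59 shade, against 81.4, 76.7 and 75.3 TPM in bzip59 white light, a change of 0.18 (adjusted p = 0.309). RS40 had 57.4, 53 and 55.3 TPM in bzip59 shade, against 52.9, 40.3 and 48.3 TPM in bzip59 white light, a change of 0.23 (adjusted p = 0.24). The corresponding estimates in Col-0 were -0.16 for SR34, -0.29 for RS2Z33 and -0.13 for RS40.

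SR30, the gene that fell in Col-0, had 72, 68.2 and 70.1 TPM in bzip59 shade, against 57.4, 54.6 and 70.1 TPM in bzip59 white light. The bzip59 groups overlapped, since library 3 had 70.1 TPM in both lights, and the change was 0.21 (SE 0.12, limma adjusted p = 0.284). RS31A had 7.31, 8.85 and 9.09 TPM in bzip59 shade, against 10.8, 8.68 and 8.66 TPM in bzip59 white light, overlapping, with a change of -0.14 (limma adjusted p = 0.595). Its transcript 4 had 0.82, 0.69 and 1.37 TPM in bzip59 shade, against 3.76, 2.87 and 1.75 TPM in bzip59 white light, without overlap. In bzip59 shade 5 of the 35 tested transcripts were higher without overlap (17.3% of all tested transcripts) and 1 was lower (9.71%), which was this one. Its change of -0.93 (SE 0.35, limma adjusted p = 0.161) was not called, like all 35 transcripts of the family in bzip59, of which 5 had an unadjusted p under 0.05, where 5.59% of all tested transcripts were called and 20.9% had such a p. SR34 transcript 3 had 5.6, 5.84 and 5.24 TPM in bzip59 shade, against 1.43, 1.34 and 3.7 TPM in bzip59 white light. It was higher in every shade library, with a change of 1.13 (SE 0.35, limma adjusted p = 0.0859). Transcript 1 of SR34 had 71.1, 61.9 and 68.4 TPM in bzip59 shade, against 59.1, 49.6 and 45.3 TPM in bzip59 white light, also without overlap, with a change of 0.39 (limma adjusted p = 0.165).

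Averaged over both genotypes, shade lowered 1 of 10 genes, RS31A, by 0.35 on the log2 scale (SE 0.11, limma adjusted p = 0.0421), where 9.41% of all tested genes fell and 19% were called. The average over genotypes also lowered 1 of 35 transcripts, RS31A transcript 4, with a change of -1.26 (SE 0.25, limma adjusted p = 0.00634), where 7.07% of all tested transcripts fell and 13.6% were called. Transcript 4 stayed called on leaving out any of the 12 libraries. The RS31A gene call was lost on leaving out any of 9 of the 12 libraries, with adjusted p from 0.0605 to 0.108, the exceptions being bzip59 white light 2, Col-0 shade 1 and Col-0 white light 3. The gene call was lost as well with the replicate number as a block (0.0535), without the filter on low values (0.0609) and without both white-light libraries numbered 2 (0.0755).

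Isoform shares were then tested separately from levels, to ask whether the mix changed when the gene did not. None of 32 tested shares was called by limma for shade in Col-0 (0.0548% of all 16431 tested shares were called), for shade in bzip59 (0.0122%) or for shade over both genotypes (0.11%), and 1, 1 and 2 of the 32 had an unadjusted p under 0.05, where 9.72%, 6.07% and 10.6% of all tested shares did. Groups did not overlap for 1 of 32 shares in Col-0 (14.1% of all tested shares) and for 2 of 32 in bzip59 (12.3%), RS31A transcript 4 in both and SR34 transcript 3 in bzip59. The largest differences in both genotypes were in RS31A transcript 4, whose shares are given above by library. In Col-0 its mean share was different in shade by -22.75 percentage points (95% interval from -38.18 to -7.31, adjusted p = 0.24). In bzip59 the difference was -18.03 points (from -33.47 to -2.60, adjusted p = 0.822), and over both genotypes -20.39 points (from -31.30 to -9.47, adjusted p = 0.155). RS31A transcript 2 was not called either, with a difference of 15.26 points in bzip59 (from 3.32 to 27.20, adjusted p = 0.818) and 5.21 points in Col-0. Adjusted p-values are from the arcsine-transformed shares, and points and intervals from the untransformed ones.

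Most shade differences in share were small, but several of their intervals were wide. Of the 32 shares, 26 differed by less than 5 points in Col-0 and 29 in bzip59. The median 95% interval reached 8.07 points to either side. Outside RS31A, the largest difference in Col-0 was 7.79 points for RS40 transcript 1 (from -3.08 to 18.67). In bzip59 it was 5.38 points for SR34B transcript 1 (from -14.01 to 24.76). SR30 transcript 2 differed between the lights by 0.12 points in bzip59 (from -8.00 to 8.25) and by -2.41 points in Col-0 (from -10.53 to 5.71). Those intervals are not adjusted for the number of shares tested. With 3 libraries a group, larger differences went uncalled too, such as the -22.75 points of RS31A transcript 4 in Col-0.

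**Figure D4:**
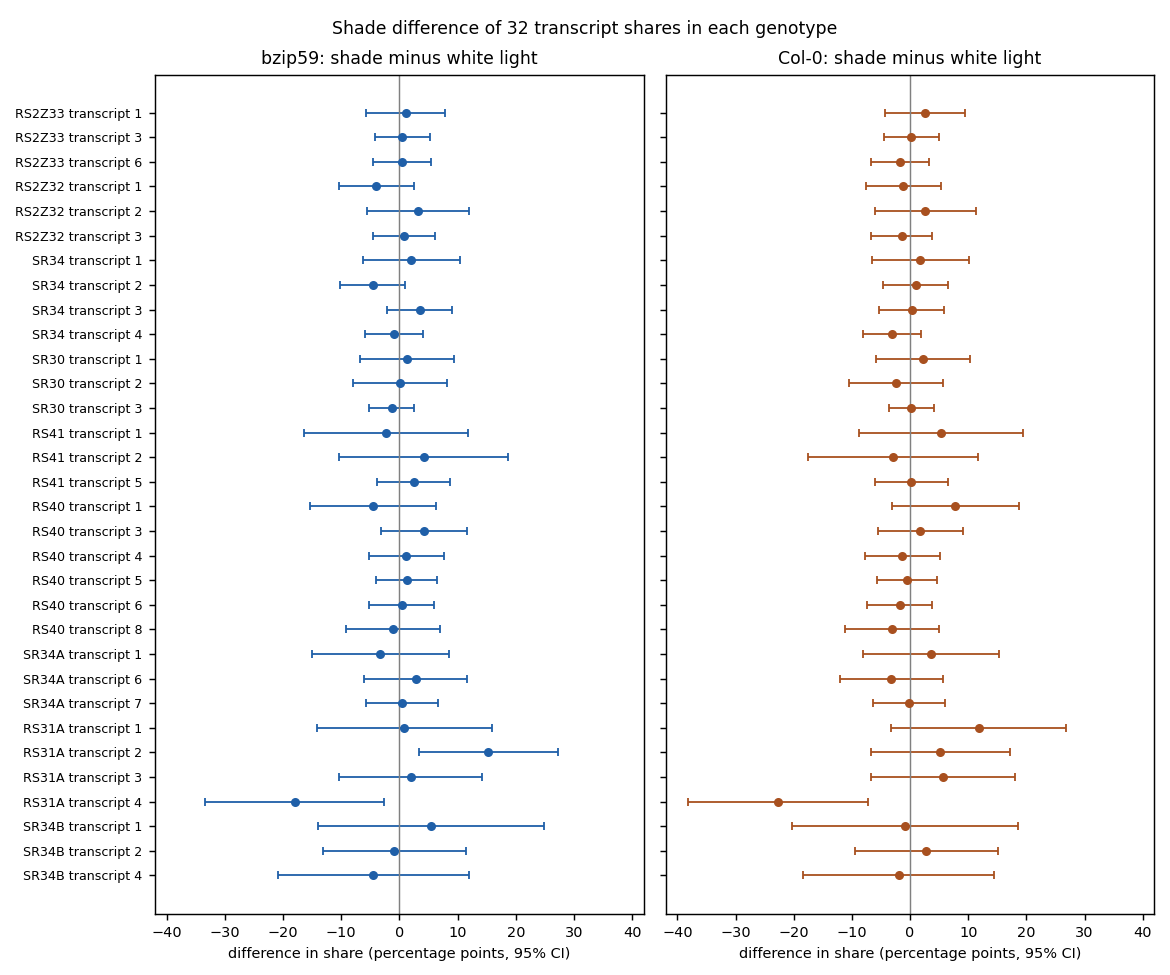
Difference in share between shade and white light in percentage points (x axis) for the 32 tested shares (y axis), in bzip59 on the left and Col-0 on the right, with 95% intervals. Most points lie within 5 points of 0, and RS31A transcript 4 is lowest in both panels, at -18.03 in bzip59 and -22.75 in Col-0.

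The distance between whole isoform mixes, taken as 0.5 times the summed absolute share differences of a gene, was also largest for RS31A in both genotypes. Between Col-0 shade and Col-0 white-light libraries the mean distance was 24.2 points for RS31A, 15.7 for RS40, 13.9 for SR34B and 5.51 for SR30, with 13.7 as the median of all genes with tested shares. Libraries of a group differed among themselves too: RS31A libraries were 8.79 points apart within Col-0 shade and 24.2 points within Col-0 white light. RS31A was the 1 of 9 genes whose distance between the lights exceeded both distances within the lights in Col-0, by a margin that vanished on rounding, where 19.9% of all such genes did so. In bzip59, RS31A was again the 1 of 9, with 24.3 points between the lights, 21.1 within shade and 12.4 within white light, where 18.4% of all such genes did so. SR30 libraries were 5.49 points apart between the lights in bzip59 and 6.16 and 5.84 points within shade and within white light.

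The mutant was compared with the wild type in each light. In white light bzip59 had no called change in the 10 genes (0.0254% of all tested genes were called with limma), and 4 had an unadjusted p under 0.05, where 15.5% of all tested genes did. All 10 estimates were lower in bzip59, with a median of -0.28, but the median of all tested genes was itself -0.16. With TMM factors the median over all tested genes was 0.00, 8 of the 10 were lower and the family's median was -0.10. Seed storage markers summed higher in every bzip59 white-light library than in any Col-0 white-light library, and bzip59 white light 2 had the lowest scaling factor; their part in the result was not tested. SR30 had 57.4, 54.6 and 70.1 TPM in bzip59 white light, against 72.1, 90 and 86.7 TPM in Col-0 white light, without overlap and with a change of -0.45 (SE 0.12, limma adjusted p = 0.215). RS2Z33 had 81.4, 76.7 and 75.3 TPM in bzip59 white light, against 101, 105 and 104 TPM in Col-0 white light, also without overlap, with a change of -0.40 (adjusted p = 0.207). RS40 had 52.9, 40.3 and 48.3 TPM in bzip59 white light, against 65.1, 64 and 61.4 TPM in Col-0 white light, a change of -0.43 (adjusted p = 0.22) and again no overlap. For SR30, RS2Z33 and RS40 every bzip59 library was thus below every Col-0 library in the deposited TPM. Over the alternative runs the change ranged from -0.55 to -0.26 for SR30, from -0.43 to -0.22 for RS2Z33 and from -0.51 to -0.25 for RS40. SR34 had 67.3, 60.2 and 59.9 TPM in bzip59 white light, against 85.2, 69.4 and 79.6 TPM in Col-0 white light, a change of -0.31 (adjusted p = 0.288). With RS2Z32, these were the 5 genes that did not overlap, all lower in bzip59, where 15.7% of all tested genes did so in that direction. This comparison and shade in Col-0 share the Col-0 white-light libraries, so their estimates for SR30 and RS2Z33 are not independent.

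In shade, the estimated gene changes between bzip59 and Col-0 had a median of 0.06 in the family. Their median 95% interval reached 0.26 to either side, so larger differences may have gone uncalled. No gene was called (0.0406% of all tested genes were called with limma) and none had an unadjusted p under 0.05 (2.71% of all tested genes). Changes ran from -0.07 for RS40 to 0.21 for SR30. SR30 had 72, 68.2 and 70.1 TPM in bzip59 shade, against 59.1, 63.2 and 59.7 TPM in Col-0 shade. It was the 1 gene without overlap, higher in bzip59, where 4.57% of all tested genes were so, and its change of 0.21 had a limma adjusted p of 1 (95% interval from -0.06 to 0.47). RS31A transcript 4 had 0.82, 0.69 and 1.37 TPM in bzip59 shade, against 0, 0.46 and 0 TPM in Col-0 shade, again without overlap (2 of 35 transcripts higher, where 4.91% of all tested transcripts were), a change of 0.77 with an adjusted p of 1.

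Neither comparison of genotypes called a transcript: 0 of 35 in white light (0.0152% of all tested transcripts were called with limma), with 9 at an unadjusted p under 0.05 (11.9%) and 7 lower without overlap (12.1%), and 0 of 35 in shade (0.0266%), with 0 at that level (3.18%). Nor was a share called: 0 of 32 in white light (0% of all tested shares) and 0 of 32 in shade (0.0426%), with 1 at an unadjusted p under 0.05 in each (6.54% and 4.22% of all tested shares). Libraries lay apart for 1 of 32 shares in each light, RS31A transcript 2 in white light (10% of all tested shares) and RS31A transcript 4 in shade (9.56%). The largest share difference in white light was in RS40 transcript 1, higher in bzip59 by 12.46 points (95% interval from 1.58 to 23.34, limma adjusted p = 0.741), with overlapping libraries. In shade the largest was 9.15 points for RS31A transcript 4 (from -6.29 to 24.58). The distance between isoform mixes exceeded both within-group distances in 0 of 9 genes in either light, where 14.7% of all such genes did so in white light and 15.9% in shade.

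Whether the response to shade itself differed between the genotypes was tested as an interaction, the shade change in bzip59 less that in Col-0. No gene of the 10 was called, as none of all 19693 tested genes was (0% with limma), and 3 had an unadjusted p under 0.05, where 8.01% of all tested genes did. SR30 had the largest estimate, 0.65 (SE 0.17, unadjusted p = 0.00255, adjusted p = 0.536). SR34 followed with 0.51 (SE 0.18, adjusted p = 0.586) and RS2Z33 with 0.47 (SE 0.15, adjusted p = 0.584). All 10 estimates were above 0 and above the median of all tested genes, with a family median of 0.37 against 0.15. The same held with TMM factors, with 0.20 against -0.00, and with quantile normalization, with 0.22 against 0.02. The 10 estimates come from the same 12 libraries and are not independent, so their shared sign is not a test of the family. No interaction was called among the 35 transcripts (0% of all tested transcripts, and 6 of the 35 at an unadjusted p under 0.05, where 6.68% were) or the 32 shares (0.0122%, and 0 at that level, where 4.75% were). That SR30 and RS31A were called lower in Col-0 and were not called in bzip59 is therefore not shown to be a difference between the genotypes.

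**Figure D5:**
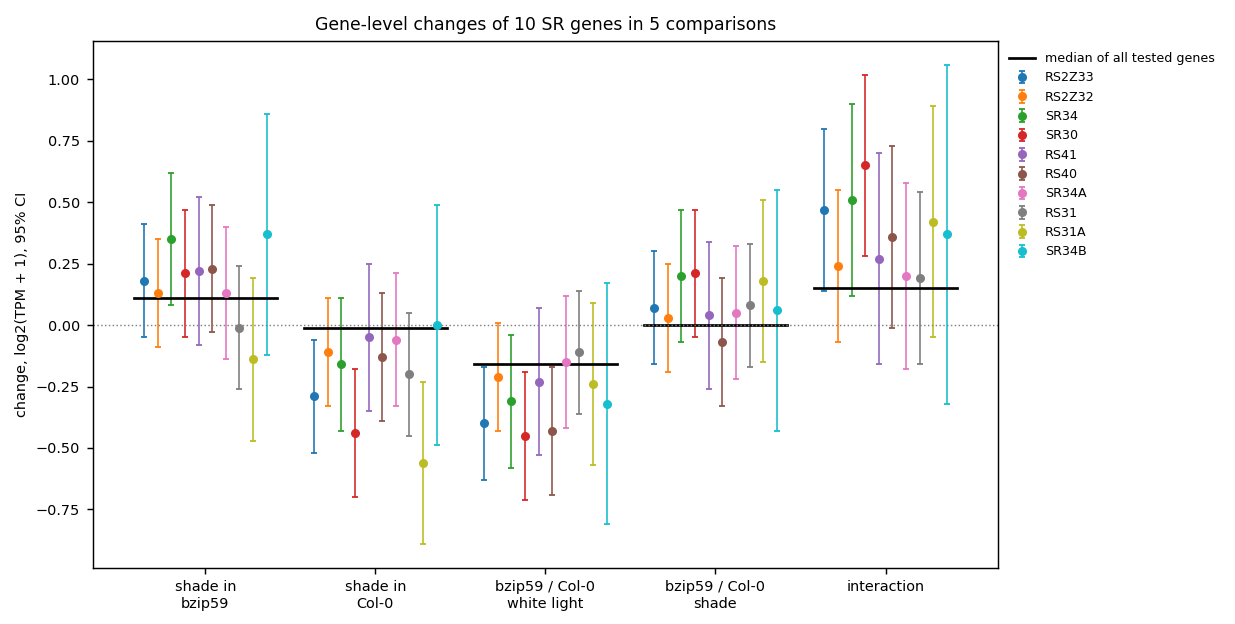
Change on the log2(TPM + 1) scale (y axis) of the 10 genes in 5 comparisons (x axis), with 95% intervals as bars. The thick black line is the median of all tested genes, which is -0.16 for the genotypes in white light and 0.15 for the interaction; all 10 genes lie above it in the interaction.

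Other genes of the splicing machinery were read from 6 lists with 36 entries, all of which were tested. In Col-0, limma called 0 of the 36 for shade, where 9.92% of all tested genes were called, with 1 at an unadjusted p under 0.05 (22.6% of all tested genes). In bzip59, shade raised 2 and lowered 2 of the 36, both pairs outside the SR family, where 10.2% of all tested genes were called, a share close to that of the lists. U2AF35A, the small U2AF subunit, which recognises the end of the intron, had 60.1, 60.2 and 54.8 TPM in bzip59 shade, against 45.2, 34 and 35.9 TPM in bzip59 white light. Its libraries did not overlap, and it rose by 0.60 (SE 0.12, limma adjusted p = 0.0103). U2AF65A, the large subunit, which binds the pyrimidine tract, had 99.5, 89.3 and 97.6 TPM in bzip59 shade, against 70, 65.4 and 78.9 TPM in bzip59 white light. U2AF65A rose by 0.42 without overlap (SE 0.10, limma adjusted p = 0.0235), a call that was lost with TMM factors (0.29, adjusted p = 0.15). Both glycine-rich RNA-binding proteins of the list, which follow the circadian clock and shape the splicing of each other's transcripts, were lower. GRP8 had 167, 192 and 158 TPM in bzip59 shade, against 368, 264 and 290 TPM in bzip59 white light, without overlap, and fell by 0.82 (SE 0.18, limma adjusted p = 0.0137). GRP7 had 366, 354 and 388 TPM in bzip59 shade, against 715, 531 and 557 TPM in bzip59 white light, without overlap, and fell by 0.69 (SE 0.19, limma adjusted p = 0.0397). These 4 calls for shade in bzip59 depended on single libraries. U2AF65A lost its bzip59 call without bzip59 shade 1 or 3 or bzip59 white light 2 (adjusted p from 0.0518 to 0.107) and with the 2 groups fitted alone (0.0857). U2AF35A lost its call without bzip59 shade 1 (adjusted p = 0.0532) and with the 2 groups fitted alone (0.0505), and GRP8 without bzip59 shade 1 or 3 (0.0601 and 0.0684). GRP7 lost its bzip59 call on leaving out any 1 of the 6 bzip59 libraries, Col-0 white light 1 or Col-0 shade 3 (adjusted p from 0.0543 to 0.122), and without the filter on low values (0.0629).

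Over both genotypes, 2 of the 36 rose with shade, U2AF35A by 0.41 (limma adjusted p = 0.00657) and AT1G30480 by 0.42 (adjusted p = 0.0314), and 2 fell, GRP7 with -0.65 (adjusted p = 0.00526) and GRP8 with -0.52 (adjusted p = 0.0129), where 19% of all tested genes were called. The 8 further SR genes of the list, among them RSZ21, SC35 and SCL33, held none of these called genes, with median changes of 0.12 for shade in bzip59 and 0.07 for shade in Col-0. Nor did the lists of 7 SR protein kinases and of 4 nonsense-mediated decay factors hold any. For genotype in white light, genotype in shade and the interaction limma called 0 of the 36, with 11, 1 and 5 at an unadjusted p under 0.05, where 15.5%, 2.71% and 8.01% of all tested genes were. Over both genotypes, the calls of U2AF35A, GRP7 and GRP8 held under every alternative run, with adjusted p of at most 0.0231, 0.018 and 0.0391. AT1G30480 lost its call without bzip59 shade 1 or 2, bzip59 white light 3, Col-0 white light 1 or 2, or Col-0 shade 1 or 3 (adjusted p from 0.0527 to 0.0825), and without both white-light libraries numbered 2 (0.28, adjusted p = 0.083).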

How the data were processed

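Poly(A)-selected RNA from whole seedlings was sequenced, per the labels' protocols. Reads were trimmed with fastp and cutadapt, aligned with HISAT2 to TAIR10, and analysed with DESeq2, per the submitters' processing notes. The authors deposited TPM per transcript, per the file headers; for the tool behind TPM, a name is not given in the sources used here. Another 4 columns, of group means, were not used.

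TPM was summed per gene, and shares of the gene's TPM were computed per library. Limma 3.58.1 (R 4.3.3) fitted 4 group means with an intensity trend to log2(TPM + 1), for genes and transcripts with a mean of at least 1 TPM, and to the arcsine of the square root of shares. Shares were tested where their mean was 5% to 95% and the gene averaged at least 1 TPM and was above 0 in every library. Comparisons were of light (shade over white, per genotype and averaged), of genotype (bzip59 over Col-0, per light), and their interaction. P-values were adjusted over all features. Fits were tried on simulated data for shade in Col-0 only, with each feature drawn independently. The simulation thus left out ties between shares of a gene and deviations shared by a whole library.

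The members and lists were chosen with earlier results of these data known. Named were all 10 genes, transcripts with a mean share of at least 10% in some group, and up to 3 called genes per list and comparison. RefSeq (TAIR10.1) supplied symbols, and 9 of the 36 other list entries whose names it did not hold go by locus. Alternatives were the pseudocount, filters, scaling (own unweighted TMM, quantile), trend, replicate block, groups fitted, share scale and omitted libraries.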

Additional observations from a re-analysis of the deposited data

Results flagged for a closer look

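RS2Z33 drew attention because its libraries moved to opposite sides in the 2 genotypes. It had 96, 82.3 and 86.6 TPM in bzip59 shade, all above the 81.4, 76.7 and 75.3 TPM in bzip59 white light. In Col-0 it had 95.4, 76.5 and 81.4 TPM in shade, all below the 101, 105 and 104 TPM in white light. Of all tested genes, 21.5% lay higher in shade without overlap in bzip59 and 15.8% lay lower in Col-0. How many did both was not counted. The interaction was 0.47 on the log2(TPM + 1) scale (SE 0.15, unadjusted p = 0.00979, limma adjusted p = 0.584) and did not pass the threshold. This sign was not particular to RS2Z33: all 10 genes of the family had interactions above 0, and those of SR30 (0.65) and SR34 (0.51) were larger. The median interaction over all tested genes was 0.15 in the deposited TPM. With TMM factors the interaction of RS2Z33 was 0.29, against a median of -0.00 over all tested genes.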

How the results depend on the processing

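For shade in Col-0, the count of called genes was 2 of 10 as reported; it was 1 without the intensity trend or with TMM factors, where SR30 was lost, and with the replicate block (adjusted p = 0.0546) or without the filter, where RS31A was lost, 0 with the 2 groups fitted alone or without both white-light libraries numbered 2, and from 0 to 2 on leaving out a library. Over both genotypes the count of 1 gene, RS31A, became 0 with the replicate block (adjusted p = 0.0535), without the filter or without both white-light libraries numbered 2, and ranged from 0 to 1 on leaving out a library. The count of 1 transcript in Col-0 became 0 with the 2 groups fitted alone or at a mean of at least 5 TPM, a filter that leaves RS31A transcript 4 out, and ranged from 0 to 1 on leaving out a library. In bzip59 the count of 0 transcripts ranged from 0 to 1, and over both genotypes the count of 1 transcript became 0 at a mean of at least 5 TPM. No share was called under any alternative run. Signs turned in 37 of 1300 gene values, 189 of 2830 transcript values and 203 of 2596 share values, all uncalled in both fits. The transcript and share values cover only transcripts with a mean share of at least 10% in some group. Signs of the smaller tested transcripts were not counted. Counts over all genes moved too: 1954 genes called for shade in Col-0 became 976 to 2424, and 2007 in bzip59 became 871 to 3305, on leaving out a library. Same-numbered libraries correlated from -0.15 to 0.25 in their deviations from group means, over 0.1 in 3 of 18 pairs. Of the 12 libraries, 6 correlated best with their own number. Whether the numbers pair the samples is settled neither by these values nor by the labels. Unknown depth and 3 libraries a group limit all values, most of all the shares of the scarce RS31A and SR34B.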
